A study of Mus musculus with 2 samples.

Results

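B lineage cells made up 62 of the 19564 quality-filtered cells of the mouse rib repair callus in 2 single-cell RNA sequencing (scRNAseq) libraries prepared 4 days post-injury (dpi). They were chosen by their own transcripts. A kept cell had at least 200 detected genes and less than 10% of its unique molecular identifiers (UMIs, each 1 counted transcript molecule) on mitochondrial genes. A member also had at least 2 UMIs of *Cd79a* and *Cd79b* summed, 0 UMIs of *Siglech* (a marker of plasmacytoid dendritic cells) and less than 2% of its UMIs on *Col1a1*, *Col1a2* and *Col3a1*. The study asked how Hedgehog signaling acts during large-scale rib repair. Both groups carried the *Sox9*:CreER and *R26*:tdT alleles and received 3 tamoxifen injections between 7 and 5 days before a resection of 3 mm, at 8 to 12 weeks of age. The control was heterozygous for the floxed allele of *Smo*, the Hedgehog signal transducer (Smof/+), and the *Smo* cKO was homozygous for it (Smof/f). CreER was driven from *Sox9*, a gene of skeletal progenitors, and tdT marks cells in which it acted. Cells of 3 animals were pooled into 1 library for each genotype, so there were no replicates, the genotypes could not be compared by a test, and every 95% interval below covers counting error only.

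B cells are made in the bone marrow. Precursors rearrange their immunoglobulin heavy chain gene first and pair the chain with a surrogate light chain, made from *Vpreb1*, *Vpreb2* and *Igll1*, to form the pre-B cell receptor. Cells that then rearrange a light chain leave the marrow as IgM-bearing cells, mature in the spleen and lymph nodes, where they display IgD and MHC class II, and on activation may become antibody-secreting plasmablasts and plasma cells. *Cd79a* and *Cd79b* encode the signaling chains of the B cell receptor at all of these stages, although plasma cells hold less of them. In the mouse genome (GRCm38), *Cd79a* lies on chromosome 7 from 24897381 to 24902197 and *Cd79b* on chromosome 11 from 106311341 to 106314762. The constant region genes *Ighm* and *Igkc* lie on chromosome 12 from 113418558 to 113422730 and on chromosome 6 from 70726435 to 70726966.

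Most, but not all, of the chosen cells carried other B lineage transcripts. At least 2 UMIs of B cell markers outside the rule were carried by 12 of 16 members in the control library and by 40 of 46 in the *Smo* cKO library. These include 2 control cells and 1 *Smo* cKO cell that fell in no group of members, and the markers of 1 of these control cells were mostly *Ebf1*, which connective cells also express. At least 2 UMIs of *Ighm* and *Igkc*, the constant regions of the IgM heavy chain and the kappa light chain, were found in 9 of 16 (56.3%, 95% Clopper-Pearson interval 29.9% to 80.2%) and 39 of 46 (84.8%, 71.1% to 93.7%). The same was true of 0 of 47 control T cells, which allows a share of up to 7.55%, and of 2 of 122 *Smo* cKO T cells (1.64%), at median depths of 1473 and 1827 UMIs against 7614 and 2429.5 in the members. At least 3 UMIs of 14 genes of other lineages, among them *Lyz2*, *C1qa*, *Cd3e*, *Dcn* and *Sparc*, were found in 12 of 16 and 26 of 46 members. The B lineage label thus fitted most members, and the cells for which it did not are described apart.

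The threshold of 2 UMIs separated the cells incompletely. Of the members with exactly 2 UMIs of *Cd79a* and *Cd79b*, 2 of 7 (control) and 8 of 15 (*Smo* cKO) also had at least 2 UMIs of *Ighm* and *Igkc*. With 3 or more UMIs, 7 of 9 and 31 of 31 did. Just outside the rule, 69 control and 87 *Smo* cKO cells had 1 UMI, of which only 3 and 9 had at least 2 *Ighm* and *Igkc* UMIs, while 37 and 58 had at least 2 UMIs of the macrophage complement genes *C1qa*, *C1qb* and *C1qc*. The libraries shared 613 cell barcodes, and 1 control member and 0 *Smo* cKO members had a barcode that also occurred in the other library.

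The genes that sorted the members into stages are shown first by their promoter sequences. The windows are the 250 bases before the start of each transcript in RefSeq on GRCm38.p6, written 5′ to 3′ on the strand of the gene, and capitals mark matches on either strand to motifs of B lineage transcription factors. *Vpreb1*, *Vpreb2* and *Igll1* marked the precursor cells. Their windows lie at chr16:16869256-16869505 on the minus strand, chr16:17980315-17980427 on the plus strand and chr16:16863986-16864235 on the minus strand. For *Vpreb2* the last 137 bases of the window are an untranslated region in GENCODE vM21 and are not shown, and 190 bases of the *Vpreb1* window are an exon of a noncoding *Vpreb1* transcript there. *Vpreb3*, whose product associates with immunoglobulin chains inside precursor B cells, split the cells with immunoglobulin transcripts, and its window is chr10:75948050-75948299 on the plus strand. *Jchain*, which encodes the chain that joins IgA and IgM into polymers, marked the antibody-secreting cells, and its window is chr5:88527898-88528147 on the minus strand.
Vpreb1: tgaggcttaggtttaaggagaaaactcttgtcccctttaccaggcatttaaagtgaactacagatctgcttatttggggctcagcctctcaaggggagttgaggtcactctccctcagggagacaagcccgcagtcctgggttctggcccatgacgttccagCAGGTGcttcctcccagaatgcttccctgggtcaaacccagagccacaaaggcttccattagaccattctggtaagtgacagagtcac
Vpreb2: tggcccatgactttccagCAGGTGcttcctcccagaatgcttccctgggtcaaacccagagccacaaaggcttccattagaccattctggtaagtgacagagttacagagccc
Igll1: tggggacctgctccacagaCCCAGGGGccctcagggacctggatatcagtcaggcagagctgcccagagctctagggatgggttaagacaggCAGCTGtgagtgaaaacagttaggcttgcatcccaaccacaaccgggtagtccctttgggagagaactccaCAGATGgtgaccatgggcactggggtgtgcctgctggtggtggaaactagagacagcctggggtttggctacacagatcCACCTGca
Vpreb3: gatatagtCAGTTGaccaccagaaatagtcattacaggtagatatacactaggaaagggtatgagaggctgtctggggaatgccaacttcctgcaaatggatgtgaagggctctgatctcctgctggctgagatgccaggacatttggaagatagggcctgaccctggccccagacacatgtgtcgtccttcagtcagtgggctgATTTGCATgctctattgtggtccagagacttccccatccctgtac
Jchain: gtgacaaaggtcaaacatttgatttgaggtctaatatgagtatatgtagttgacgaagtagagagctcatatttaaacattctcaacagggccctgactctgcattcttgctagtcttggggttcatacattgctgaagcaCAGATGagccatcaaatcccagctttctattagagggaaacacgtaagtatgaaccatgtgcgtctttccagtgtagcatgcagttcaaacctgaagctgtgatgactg

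The motifs were CCCNNGGG for EBF1, CAGNTG for E-box proteins such as E2A, and the octamer ATGCAAAT of OCT1 and OCT2. Among 32851 windows of the same length, 11.8% held the EBF1 letters, 44.8% the E-box and 1.60% the octamer. *Igll1* had the EBF1 letters 231 bases before its start and E-boxes at 158, 87 and 8 bases. *Vpreb3* was the sole one of the 5 genes with the octamer, 45 bases before its start, and had an E-box at 242 bases. *Vpreb1* had 1 E-box at 88 bases and *Jchain* 1 at 109 bases. In the window of *Vpreb2*, an E-box lay at 232 bases in the part shown and another at 60 bases in the part left out. These are matches of letters and not measured binding sites, and the E-box letters are common. *Vpreb1* and *Vpreb2* shared a block of 103 aligned bases with 102 identical (99.0%), which spans 106 to 4 bases before the *Vpreb1* start and 250 to 148 bases before the *Vpreb2* start. The transcripts of this pair are also near-identical, so UMIs could be split between them or lost and their separate counts are uncertain. The start sites of *Vpreb1* and *Igll1* are 5.27 kb apart. *Ms4a1*, *Cd79b*, *Ly6d*, *Cd74* and *Mzb1* had no window in the table used.

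B lineage cells were rare in both libraries and a larger share of the *Smo* cKO library. Of 10057 kept control cells 16 were members (0.159%, with a 95% Clopper-Pearson interval from 0.0910% to 0.258%), while the *Smo* cKO library held 46 among 9507 (0.484%, 0.354% to 0.645%). The difference was 0.325 percentage points (Newcombe interval 0.168 to 0.497), or 3.04-fold (exact interval 1.69 to 5.76). When only members with *Ighm* and *Igkc* or precursor gene UMIs were counted, a choice made after seeing the data, 10 cells (0.0994%) and 39 cells (0.410%) remained, a difference of 0.311 percentage points (0.173 to 0.468). By rules of the same kind, the libraries held 47 and 122 T cells, 55 and 32 plasmacytoid dendritic cells, 1575 and 1987 macrophages and 5084 and 3713 connective cells. With animals pooled, the spread between animals is not known, and whether the shares differ beyond it was not tested.

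The depth of the members differed between the libraries. The kept cells of the control library held 104189394 UMIs and those of the *Smo* cKO library 110863278, at medians of 8367 and 9092 UMIs per cell. Members held 137376 and 187739 UMIs in all. Control members ranged from 819 to 33592 UMIs per cell, with a median of 7614 UMIs and 1395.5 genes. *Smo* cKO members ranged from 688 to 36166 UMIs, with a median of 2429.5 UMIs and 871.5 genes. The ranges overlapped almost fully, but the typical control member was deeper, and a gene with few transcripts was more easily seen in it.

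Members were sorted by fixed gene lists, each needing at least 2 UMIs. Precursor-gene cells had *Vpreb1*, *Vpreb2*, *Igll1*, *Rag1*, *Rag2* or *Dntt*. Mature-gene cells had *Ighd*, *Ms4a1*, *Fcer2a*, *Cr2* or *Fcmr*. Secretory-gene cells had *Jchain*, *Sdc1*, *Prdm1* or *Tnfrsf17*. The remaining cells with *Ighm* and *Igkc* UMIs were divided by at least 2 UMIs of *Vpreb3*, and secretory-gene cells by *Jchain*, both after the values had been seen. Precursor-gene cells numbered 2 (control) and 4 (*Smo* cKO), and cells with immunoglobulin and *Vpreb3* numbered 2 and 3. All 15 mature-gene cells and all 14 cells with immunoglobulin but no *Vpreb3* were *Smo* cKO cells. Secretory-gene cells with *Jchain* numbered 6 (control) and 2 (*Smo* cKO), 1 secretory-gene cell without *Jchain* was a *Smo* cKO cell, and 6 and 7 cells fell in none of these groups. In the *Smo* cKO library 1 member met the lists of more than 1 class. Each group is thus few cells from pooled animals, and its cells are not replicates.

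**Figure D1:**
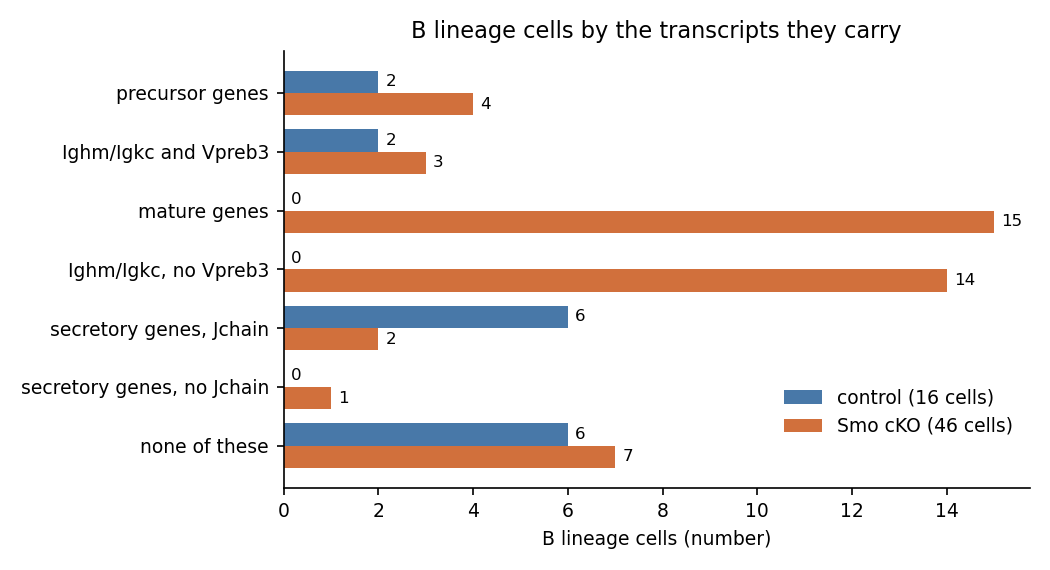
Number of B lineage cells in each group of members, for the control and the *Smo* cKO library. The 15 mature-gene cells and the 14 cells with immunoglobulin but no Vpreb3 are all in the *Smo* cKO library, and 6 of the 8 secretory-gene cells with Jchain are in the control library.

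At equal depth the secretory class was the larger in the control members. The intervals of the other differences included 0 at the class minimum of 2 UMIs, though not for the mature class at 1 UMI. Each member was thinned at random to 1000 UMIs, which left out 2 control and 5 *Smo* cKO members with fewer. Secretory-gene cells were then 6 of 14 control members (42.9%, Clopper-Pearson bounds 17.7% and 71.1%) and 2 of 41 *Smo* cKO members (4.88%, 0.596% to 16.5%), which differ by −38.0 percentage points (Newcombe bounds −62.8 and −13.7). Mature-gene cells were 0 of 14 (0% to 23.2%) and 5 of 41 (12.2%, 4.08% to 26.2%), a difference of 12.2 points (−10.4 to 25.5). Precursor-gene cells were 2 of 14 (14.3%) and 4 of 41 (9.76%), a difference of −4.53 points (−30.9 to 11.9). Without thinning, cells of the secretory class were 37.5% and 8.70%, those of the mature class 0% and 32.6%, and those of the precursor class 12.5% and 8.70%. The difference of the mature share was then 32.6 points (9.97 to 47.0), and at equal depth with a class minimum of 1 UMI it was 36.6 points (11.4 to 51.9), so its interval left out 0 under both. Of the 15 mature-gene cells, 5 kept their call after thinning and 2 had been left out for their depth.

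The precursor-gene cells had the transcripts of the pre-B cell receptor in every cell. *Vpreb1* had 12 and 8 UMIs in the control cells and 4, 15, 10 and 11 UMIs in the *Smo* cKO cells. *Igll1*, the other part of the surrogate light chain, had 4 and 4 UMIs in the control cells and 2, 9, 1 and 4 UMIs in the *Smo* cKO cells. *Dntt*, the polymerase that adds bases at the joints of rearranged genes, had 1 and 9 UMIs and 7, 6, 2 and 4 UMIs. These genes defined the class, so their presence is a description. *Vpreb3*, which did not, had 11 and 13 UMIs in the control cells and 7, 11, 15 and 5 UMIs in the *Smo* cKO cells, and so was found in all 6 cells. *Ebf1*, a transcription factor that commits cells to the B lineage, had 12 and 11 UMIs and 10, 8, 18 and 11 UMIs, again with no separation of the libraries. The heavy chain gene *Ighm* was at 1 and 1 UMI in the control cells, below the 6, 5, 7 and 5 UMIs of the *Smo* cKO cells. The latter were also deeper, at 7432, 6311, 5343 and 4866 UMIs against 3401 and 3338. *Igkc* had 1 UMI in 1 control cell and 0 in the other 5 cells. *Rag1*, which cuts the DNA in rearrangement with *Rag2*, had 0 UMIs and *Rag2* had 1.

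Proliferation genes were found in all 6 precursor-gene cells. The 19 genes of the proliferation list had between 25 and 57 UMIs per cell, 1.29% of the UMIs of the control cells and 0.743% of those of the *Smo* cKO cells. *Stmn1*, which regulates microtubules, had 54 UMIs in 6 of 6 cells, *Hmgb2*, a chromatin protein, had 68 UMIs in 6 cells, and *Pclaf*, a partner of the replication clamp, had 54 UMIs in 6 cells. *Top2a*, the DNA topoisomerase of dividing cells, had 4 and 6 UMIs in the control cells and 3, 1, 1 and 1 UMIs in the *Smo* cKO cells. Some other genes of early B cells were found in 3 to 6 of the 6 cells, while others were scarce or not seen. *Arpp21* and *Bst1* had 2 UMIs each, *Cd93* and *Spn* 1 each, and *Kit* and *Flt3* 0. *Cd24a*, a surface glycoprotein, had 48 UMIs in 6 cells, the transcription factors *Myb* and *Lef1* had 10 UMIs in 4 cells and 9 UMIs in 3 cells, and *Il7r*, the receptor for the growth factor of B cell precursors, had 6 UMIs in 5 cells. The MHC class II list had 0 to 3 UMIs per cell. Among the genes given cell by cell, the libraries did not overlap for *Ighm* and *Top2a* and overlapped for the others. The total UMIs of these cells did not overlap either. How many of all genes would separate so few cells was not counted, so no difference between the libraries is read from these genes.

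Another 5 cells had *Ighm* with *Vpreb3* but none of the surrogate light chain genes. The control cells had 974 and 819 UMIs in all and the *Smo* cKO cells 4231, 1053 and 1040. *Ighm* had 4 and 3 UMIs in the control cells and 12, 12 and 16 UMIs in the *Smo* cKO cells. *Igkc* had 5 and 0 UMIs against 5, 21 and 26 UMIs. The *Smo* cKO values were the higher for *Ighm* in these few cells, while those of *Igkc* met at 5 UMIs. *Vpreb3* had 5 and 3 UMIs (control) and 17, 2 and 2 UMIs (*Smo* cKO), and *Ebf1* had UMIs in all 5 cells. *Ly6d*, a surface protein of committed B cells, ranged from 0 to 17 UMIs, with both of these in the control cells. The MHC class II list stayed at 0 to 5 UMIs per cell, as in the precursor-gene cells. *Cd72*, a coreceptor of the B cell receptor, had 9 UMIs in 5 of 5 cells. In 1 *Smo* cKO cell the proliferation list had 95 UMIs, with 2 of *Mki67* and 6 of *Top2a*, while the other 4 cells had 3 or fewer.

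The 15 mature-gene cells, all from the *Smo* cKO library, were rich in MHC class II transcripts. Their depth ran from 688 to 4213 UMIs with a median of 2350. The MHC class II list, which the class did not use, had 12 UMIs in the lowest cell, a median of 56 and 104 in the highest, or 2.45% of all their UMIs. *Cd74*, the invariant chain that guides MHC class II molecules, made up 495 of these 854 UMIs, at 7 to 56 UMIs per cell. No cell of this group was as low as the 0 to 5 UMIs of the precursor-gene cells and the cells with *Vpreb3*. At least 3 UMIs of genes of other lineages were found in 5 of the 15 cells. The deepest cell had 26 UMIs of *Lyz2*, 10 of *C1q* genes and 3 of *Sdc1*, and whether this droplet held more than 1 cell was not tested. *Ms4a1*, which encodes CD20 and lies on chromosome 19 from 11249675 to 11266241, had 34 UMIs in 14 of 15 cells and accounted for most of the UMIs by which the class was called. *Ighd*, the IgD heavy chain of naive cells, had 7 UMIs in 5 cells, *Fcer2a* (CD23) had 3 UMIs in 3 cells, *Fcmr*, a receptor for IgM, had 6 UMIs in 5 cells, and *Cr2* (CD21) had 0.

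Receptor transcripts in the mature-gene cells were mostly kappa with IgM. *Igkc* had 0 UMIs in the lowest cell, a median of 12 and 32 in the highest, and was found in 14 of 15 cells. *Ighm* had 0, 2 and 14 UMIs as lowest, median and highest, and was found in 11 cells. All 5 cells with *Ighd* also had *Ighm*. By UMIs, 13 cells had more *Igkc* than lambda constant region and 2 had more lambda, and 12 cells had both. Outside the members, *Iglc2* had UMIs in 0.169% and *Iglc3* in 0.349% of kept *Smo* cKO cells. Why UMIs of both light chains were counted in a cell was not tested. Switched heavy chains had UMIs in 4 cells. *Ebf1* was found in all 15 cells at 1 to 4 UMIs each, *Ly6d* had 49 UMIs in 13 cells and *Cd37*, a tetraspanin of mature B cells, had 31 UMIs in 10 cells. *Btg1*, an inhibitor of proliferation, had 50 UMIs in 14 cells, and the proliferation list had only 22 UMIs, 0.0631% of all.

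The 14 cells with immunoglobulin but neither *Vpreb3* nor a class were close to the mature-gene cells in these respects. Their depth was lower, from 878 to 3250 UMIs with a median of 1724.5. The MHC class II list had 13 to 106 UMIs per cell with a median of 43.5, or 2.40% of their UMIs against 2.45% in the mature-gene cells. *Igkc* had 116 UMIs in 13 cells and *Ighm* 48 UMIs in 12 cells. By UMIs, 12 cells had more *Igkc* and 2 had more lambda. In 10 of the 14 cells, the mature list had exactly 1 UMI, which is 1 short of the class. *Ms4a1* had 5 UMIs in 5 cells, *Ighd* 4 UMIs in 4 cells and *Ly6d* 16 UMIs in 6 cells. The proliferation list had 5 UMIs in all 14 cells together. The mature list had 2 or 3 UMIs in 10 of the 15 mature-gene cells and at most 6, and the ranges of MHC class II UMIs of both groups overlapped.

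**Figure D2:**
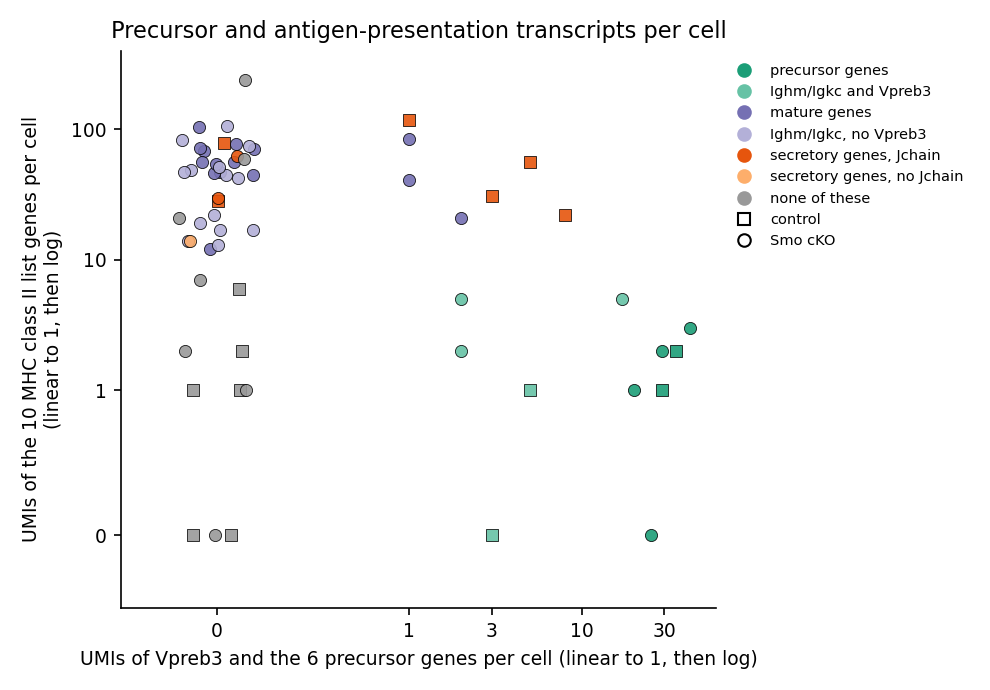
Each B lineage cell by its UMIs of precursor genes and Vpreb3 and its UMIs of the MHC class II list, with colors for the group, squares for control and circles for *Smo* cKO cells, on axes that are linear to 1 and then logarithmic, with points at 0 spread sideways. Precursor-gene cells lie at 3 or fewer MHC class II UMIs, while the mature-gene cells lie between 12 and 104.

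The 8 secretory-gene cells with *Jchain* devoted up to 44.6% of their UMIs to immunoglobulin genes. In the 6 control cells, *Igkc* had 4318, 3405, 1348, 2460, 1544 and 1446 UMIs and *Jchain* had 566, 284, 256, 256, 492 and 211 UMIs. In the 2 *Smo* cKO cells, *Igkc* had 831 and 1306 UMIs and *Jchain* 90 and 303 UMIs. Immunoglobulin genes took 35.2%, 44.6%, 22.8%, 30.8%, 25.02% and 30.3% of the UMIs of the control cells and 3.24% and 21.2% of those of the *Smo* cKO cells. Both *Smo* cKO cells lay below the control cells, but 21.2% was next to the lowest control value of 22.8%. The cell at 3.24% had 36166 UMIs, the most of any member, and 129 UMIs of genes of other lineages, against 4 to 8 in the other 7 cells. No doublet caller was run, and whether this droplet held more than 1 cell was not tested.

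Each secretory cell was dominated by 1 heavy chain. *Igha*, the heavy chain of IgA on chromosome 12 from 113254830 to 113260236, had 1929, 1002, 744, 561 and 502 UMIs in 5 control cells, in which no other heavy chain had a UMI. The remaining control cell had 480 UMIs of *Ighg2c*, an IgG heavy chain at 113285325 to 113288932 on the same chromosome. The *Smo* cKO cell of 36166 UMIs had 303 UMIs of *Ighm*, and the other had 212 UMIs of *Igha*, with 7 UMIs for the heavy chain next in line. IgA was thus the chain in 6 of the 8 cells, 5 of 6 (control) and 1 of 2 (*Smo* cKO). All 8 cells had more *Igkc* than lambda UMIs. *Iglv1*, a lambda variable gene, had 106, 3, 89, 0, 45 and 38 UMIs in the control cells and 2 and 52 in the *Smo* cKO cells beside the far higher *Igkc*.

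The machinery of antibody secretion accompanied the immunoglobulin. *Mzb1*, a chaperone that helps assemble antibodies in the endoplasmic reticulum, had 133, 38, 102, 75, 29 and 67 UMIs in the control cells and 187 and 41 UMIs in the *Smo* cKO cells. *Xbp1*, the transcription factor that expands the secretory pathway, had 25, 8, 3, 3, 5 and 6 UMIs and 15 and 2 UMIs. Every cell had both, and the libraries overlapped. *Txndc5* (104 UMIs), *Fkbp11* (65) and *Edem1* (64), which fold proteins or clear misfolded ones, were found in 8 of 8 cells. The classic plasma cell genes were sparse, with *Tnfrsf17*, the survival receptor BCMA, at 5 UMIs in 4 cells, and *Sdc1* (CD138) and *Prdm1* (BLIMP1) at 2 UMIs in 2 cells each. *Cd74* had UMIs in 8 of 8 cells, 359 in all. *Pax5*, which plasma cells switch off, had 0 UMIs, and *Ebf1* had 7 UMIs in 2 of the 8 cells. *Vpreb3* was not confined to the earlier groups, with 1, 3, 0, 8, 5 and 0 UMIs in the control secretory cells and 0 in both *Smo* cKO ones.

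**Figure D3:**
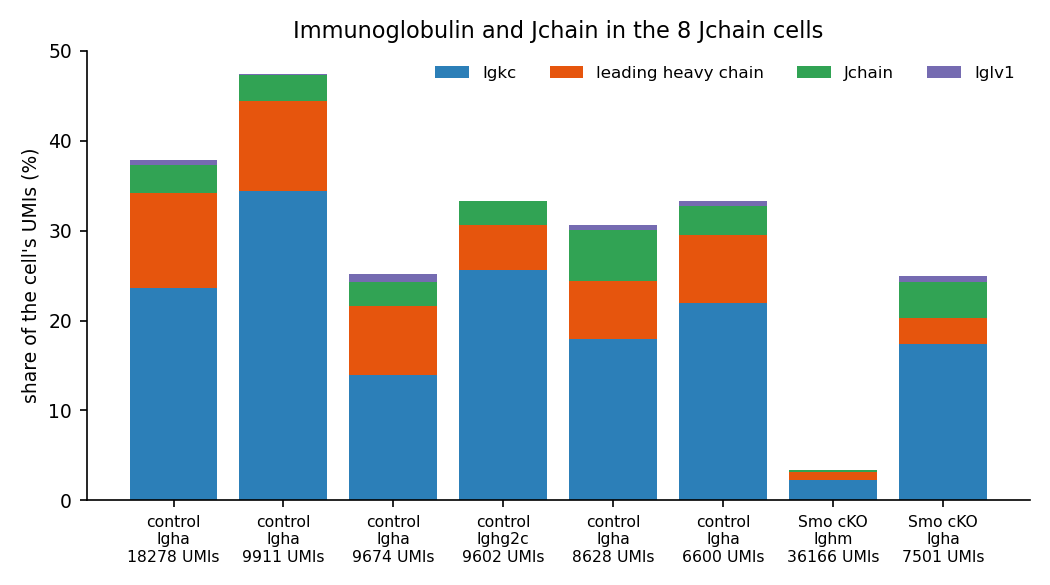
Stacked percent of the UMIs of each secretory-gene cell on Igkc, its leading heavy chain, Jchain and Iglv1, with the library, the heavy chain and the total UMIs under each bar. Igkc is the largest share in all 8 cells, and the *Smo* cKO cell of 36166 UMIs has the lowest bar.

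Immunoglobulin RNA was also found at low counts in other cells, and more widely in the control library. Outside the members, at least 1 UMI of *Igkc* was found in 12.1% of kept control cells and 2.74% of kept *Smo* cKO cells, or 29.3 and 3.32 CPM (counts scaled to a total of 1000000 UMIs). *Igha* was found in 7.53% and 0.888%, and *Jchain* in 1.49% and 0.296%. *Ighm* went the other way, at 1.46% and 2.64%. *Igha* and *Jchain* were also the higher in the members of the control library, and *Ighm* in those of the *Smo* cKO library. The part of free RNA in these counts was not tested. In connective cells, which make no immunoglobulin, 1.77% and 0.242% had at least 2 UMIs of *Ighm* and *Igkc*. Their median depths were 10084 and 12074 UMIs, against 7614 and 2429.5 in the members. Whether members with few of these UMIs hold them in the same way was not tested. Plasmacytoid dendritic cells had at least 2 UMIs of *Ighm* and *Igkc* in 63.6% and 81.3% of cells. Of the cells outside the members with at least 2 *Ighm* UMIs, 39 of 52 (control) and 33 of 71 (*Smo* cKO) carried *Siglech*. Of cells that the rule missed, 1 control cell with 1 *Cd79* UMI had 1419 UMIs of *Igkc*, 591 of *Igha* and 260 of *Jchain*, values within the range of the secretory cells.

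The remaining 14 members had few B lineage transcripts. The 1 secretory-gene cell without *Jchain*, from the *Smo* cKO library, had 26436 UMIs, 4 UMIs of *Ighm*, 3 of *Igkc*, 175 of the matrix gene *Sparc* and 1.96% of its UMIs on the 3 collagen genes of the rule, just inside the limit. Of the 13 cells in no group, 12 had exactly 2 UMIs of *Cd79a* and *Cd79b*. *Cd79b* alone had been counted in 4 of 6 control and 6 of 7 *Smo* cKO cells. The *C1q* genes had at least 10 UMIs in 2 control cells (45 and 90) and 6 *Smo* cKO cells (86, 101, 92, 31, 66 and 68), a complement subunit made by macrophages. In 1 *Smo* cKO cell, the neutrophil genes *S100a8* and *S100a9* had 224 and 125 UMIs as well. The deepest control cell, at 33592 UMIs, had 247 UMIs of *Acta1* and 227 of *Mylpf*, genes of skeletal muscle, and 141 of *Sparc*. *Igkc* and *Pax5* had 0 UMIs in all 13, and *Ebf1*, which connective cells also express, had 6 UMIs in 3 cells. The data do not bear out the B lineage label for these cells, except for 1 *Smo* cKO cell of 1118 UMIs with 1 UMI each of *Cd79a* and *Cd79b*, 5 of *Ly6d*, 1 each of *Ebf1*, *Mzb1* and *Ccr7*, 21 of MHC class II genes and 0 of *C1q*.

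**Figure D4:**
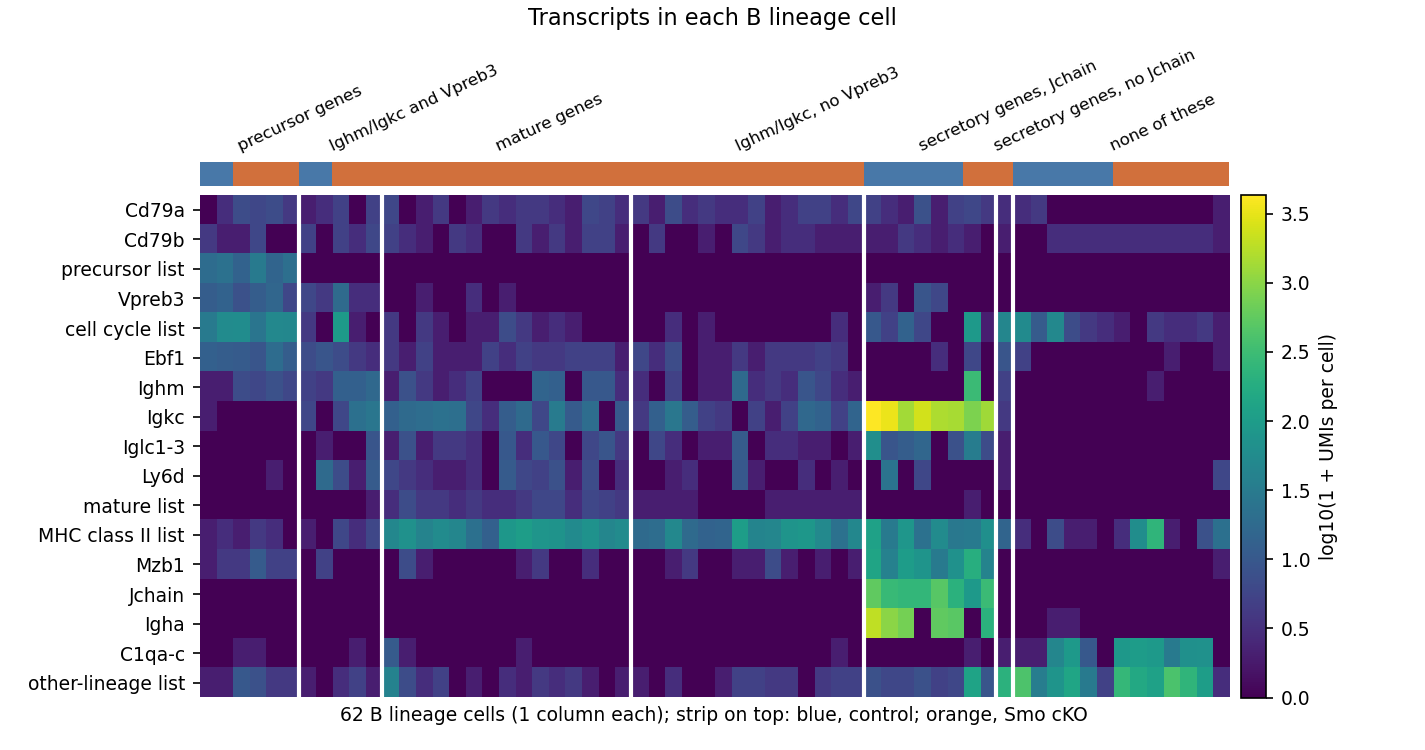
UMIs of stage genes and of other lineages in each of the 62 B lineage cells, ordered by group, on a color scale of log10(1 + UMIs), with the library of each cell in the strip on top. Precursor genes fill the precursor-gene cells, MHC class II genes fill the mature-gene cells and the cells with immunoglobulin but no Vpreb3, and C1q fills 8 of the 13 cells in no group.

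Several transcription factors were found in more than 1 group. *Ebf1* had 70 UMIs in 6 of 6 precursor-gene cells, 25 in 5 of 5 cells with *Vpreb3*, 40 in 15 of 15 mature-gene cells and 35 in 12 of the 14 cells without *Vpreb3*. *Pax5*, which maintains B cell identity, had 3 UMIs in 3 cells in each of these 4 groups, too few for an order. The E protein genes *Tcf3* and *Tcf4* had 14 UMIs in 5 and 17 UMIs in 5 precursor-gene cells, against 5 and 12 UMIs in the mature-gene cells. *Id3*, their inhibitor, had 12 UMIs in 5 precursor-gene cells, against 2. In the mature-gene cells, *Foxp1* had 29 UMIs in 11 cells (10 in the precursor-gene cells), *Irf8* 14 in 10 (against 1), *Pou2f2* (OCT2) 11 in 7 (against 0) and *Spi1* (PU.1) 9 in 7 (against 0). *Pou2af1*, the coactivator of OCT proteins, had 18 UMIs in 8 of 8 secretory cells. Signaling genes were scarcer. *Syk*, the kinase bound by CD79 chains, had 5 UMIs in 4 mature-gene cells and 8 in 5 of the cells without *Vpreb3*, and *Blnk*, the adaptor of the receptor, had 5 UMIs in 3 precursor-gene cells and 8 in 5 secretory cells.

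Receptors for migration and survival had few UMIs. *Cxcr4*, the receptor for CXCL12, had 5 UMIs in 4 precursor-gene cells, 2 in 2 cells with *Vpreb3*, 2 in 2 mature-gene cells, 3 in 3 cells without *Vpreb3* and 3 in 2 secretory cells. At least 1 *Cxcr4* UMI was seen in 43.8% of control members (n = 16) and 23.9% of *Smo* cKO members (n = 46), beside 3.64% and 4.17% of connective cells, 17.0% and 18.0% of T cells and 40.1% and 35.6% of macrophages. Of the 7 control members with *Cxcr4*, 3 were cells in no group. In CPM, *Cxcr4* was at 58.2 in control and 63.9 in *Smo* cKO members, a log2 ratio of 0.13 (interval −1.28 to 1.63). The members of the *Smo* cKO library were shallower, and the part of depth in the difference of shares was not tested. *Ccr7*, which guides lymphocytes into lymph nodes, had 3 UMIs in the mature-gene cells and 6 UMIs in the cells without *Vpreb3*. *Cxcr5*, the receptor for the follicle chemokine, had 2 and 5 UMIs there. *Cd44* and *Itga4*, adhesion receptors, had 15 UMIs in 6 and 10 UMIs in 5 secretory cells. *Tnfrsf13c*, the BAFF receptor, had 7 UMIs in 3 of the 5 cells with *Vpreb3*. *Bcl6*, the regulator of germinal centers, had 1 UMI.

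Beside the other kept cells of the same library, the members stood out by immunoglobulin genes and a short list of others. These ratios describe cells that were picked by *Cd79a* and *Cd79b* and are no test. Of 408 genes at 200 CPM or more in members of both libraries, 18 (4.41%) were at least 4-fold higher than in other kept cells in both libraries, *Cd79a* of the rule included. The log2 ratios in the control and the *Smo* cKO library were 11.82 and 11.98 for *Igkc*, 11.81 and 13.01 for *Jchain*, 11.20 and 10.54 for *Igha* and 11.03 and 11.77 for *Mzb1*. *Iglc1* (12.85 and 12.47) and *Iglv1* (11.77 and 12.96) are lambda genes. *Vpreb3* had 9.97 and 12.18, *Ly6d* 8.03 and 7.60, and *Cd24a* 5.51 and 4.96. The leukocyte genes *Cd52* (3.70 and 4.13) and *Cd74* (3.00 and 4.83) followed. *Sec11c*, a part of the signal peptidase, had 3.77 and 2.05, and *Mef2c*, a transcription factor also used by B cells, had 2.95 and 2.93. *Tspan13*, a tetraspanin (4.48 and 3.13), *Srgn*, the proteoglycan of granules (3.30 and 2.78), and *Chchd10*, a mitochondrial protein (2.78 and 2.74), completed the list together with *C1qa* (2.12 and 2.26), whose 56 control and 152 *Smo* cKO UMIs were all in the cells in no group.

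Some of these genes were shared with plasmacytoid dendritic cells, which also arise from lymphoid precursors. *Ly6d* was at 328 and 474 CPM in the control and *Smo* cKO members and at 335 and 1070 CPM in plasmacytoid dendritic cells. *Mzb1* was at 3290 and 1481 CPM against 100.5 and 123 CPM, and *Cd74* at 2031 and 5742 CPM against 2235 and 2575 CPM. In contrast, *Vpreb3* was at 357 and 336 CPM in members and had 0 UMIs in plasmacytoid dendritic cells and T cells. *Ebf1* was at 313 and 788 CPM in members and 243 and 250 CPM in connective cells. *Ms4a1* had 0 UMIs in control members and was at 213 CPM in *Smo* cKO members. Outside the members, at least 2 UMIs of precursor genes were found in 9 control and 5 *Smo* cKO cells, of which 6 and 4 carried *Siglech*, and at least 2 UMIs of mature genes in 1 and 3 cells.

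**Figure D5:**
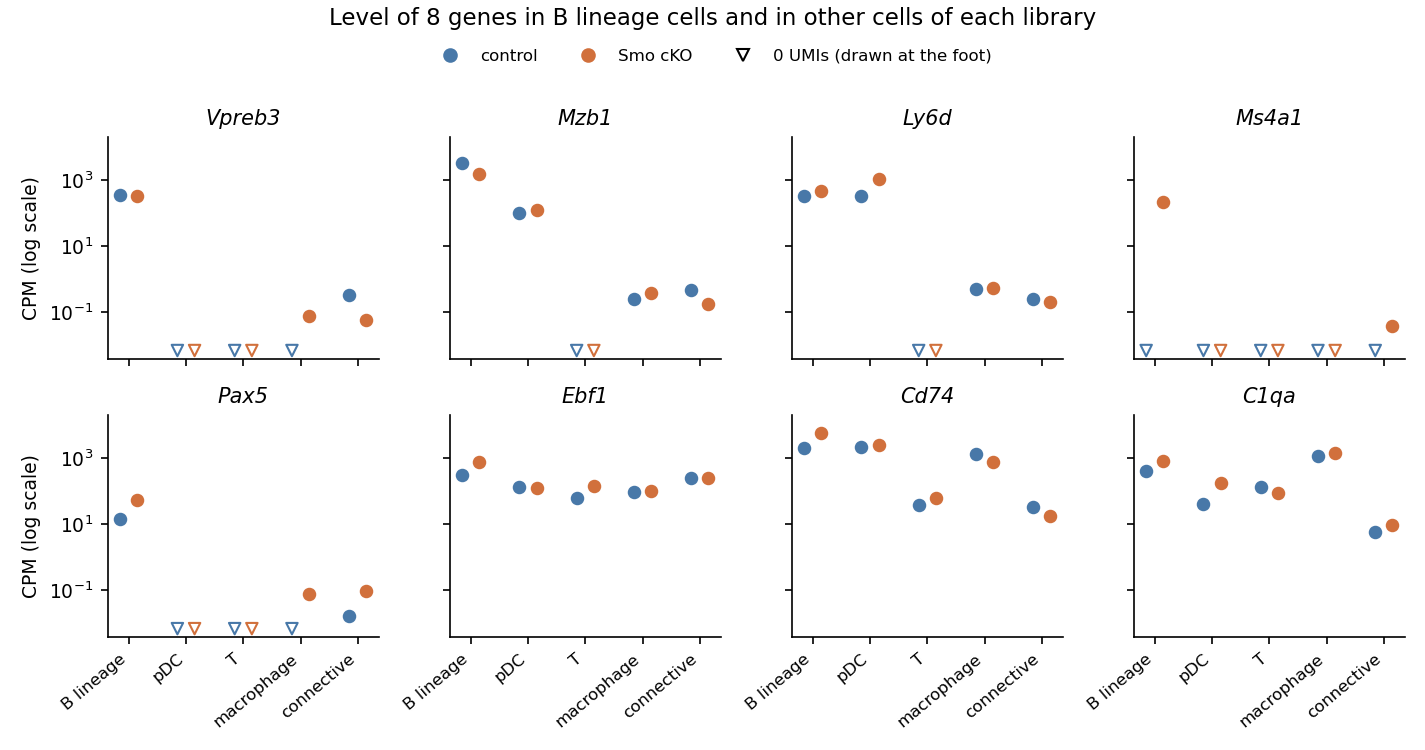
CPM of 8 genes on a log axis in members, plasmacytoid dendritic cells, T cells, macrophages and connective cells of each library, with open triangles for 0 UMIs. Vpreb3 stands at 357 and 336 CPM in members of the control and the *Smo* cKO library, while Ly6d and Cd74 are also high in plasmacytoid dendritic cells.

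The precursor-gene and mature-gene members were also set side by side gene by gene. UMIs were summed over 6 precursor-gene cells (30691 UMIs) and 15 mature-gene cells (34870 UMIs). Since the groups were formed on these cells and 4 of the 6 and all 15 came from the *Smo* cKO library, the ratios are descriptions. Of 768 genes at 200 CPM or more in either group, 99 (12.9%) were at least 4-fold higher in the precursor-gene cells and 63 (8.2%) in the mature-gene cells. These calls rest on the ratio alone, and a gene could enter through the group where it was high, so the counts are descriptions too. *Stmn1* had 54 UMIs against 2, a log2 ratio of 4.94 (interval 3.02 to 8.02), *Rasgrp2*, an exchange factor of RAP1, had 21 against 1 (4.58), and *Vpreb3* had 62 against 4 (4.14). *Pclaf* had 54 UMIs against 0, a log2 ratio of at least 4.35 taking 3 UMIs as the limit for a count of 0. *H2afy*, a histone variant, had 28 against 2 (3.99), and *Selenoh*, *Mtdh* and *Bub3* had 13, 11 and 10 against 1 each. On the mature side, *Cd74* had 495 UMIs against 1 (log2 ratio −8.77, interval −14.07 to −6.28), *Igkc* 200 against 1 (−7.46) and *Ly6d* 49 against 1 (−5.43). *H2-Eb1* and *H2-Aa*, chains of the MHC class II molecules, had 115 and 98 UMIs against 0 each. *Hspa1a*, a heat shock gene, had 20 against 1 (−4.14), with 19 of the 20 in 1 cell, *H2-DMa*, which loads peptides on MHC class II, had 18 against 1 (−3.99), and *Irf8* had 14 against 1 (−3.62).

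The members of each library were then summed and compared. Of 649 genes that reached 200 CPM in members of either library, *Smo* cKO members had 128 (19.7%) higher and 47 (7.24%) lower by 2-fold or more, and the median log2 ratio was 0.33. Scaled by this median, 80 were higher and 63 lower. Without members that had 3 or more UMIs of other lineages, 62 were higher and 515 lower. Among precursor-gene members alone, 71 were higher and 308 lower. A gene could enter through the library where it was high, so these counts are descriptions. Several of the most extreme genes came from 1 cell. All 480 control UMIs of *Ighg2c* were in 1 secretory cell, against 2 UMIs in the *Smo* cKO members (log2 ratio −8.36). *Acta1* (247 against 5 UMIs), *Mylpf* (228 against 3), *Tnnc2*, *Tnnc1*, *Tnni1*, *Des* and *Myl1*, all muscle genes, had most of their control UMIs in the deepest control cell. On the other side, 224 of 230 *S100a8* UMIs, 125 of 130 *S100a9* UMIs and all 51 *Camp* UMIs were in 1 *Smo* cKO cell in no group, and *Wfdc17* had 47 of its 91 UMIs in another. *Wfdc17* was found in 8 *Smo* cKO cells in all.

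Other genes were spread over more cells. *Ighm* had 9 UMIs in 4 of 16 control members and 483 UMIs in 33 of 46 *Smo* cKO members, a log2 ratio of 5.30 (interval 4.36 to 6.43), with 303 of the 483 in 1 secretory cell. *Plac8*, a gene of several blood lineages, had 9 UMIs in 5 of 16 and 144 UMIs in 30 of 46 members (3.55, 2.58 to 4.71). *H2-Aa* had 18 UMIs in 4 of 16 and 247 UMIs in 32 of 46 (3.33, 2.64 to 4.11), and 14 of the 18 control UMIs were in 1 secretory cell. *Hspa1a* had 3 UMIs in 3 and 50 UMIs in 11 members (3.61, 1.98 to 5.93), with 19 of the 50 in 1 mature-gene cell, and was carried by similar shares of members in both libraries. *Ighm*, *Plac8* and *H2-Aa* were more widespread in the *Smo* cKO library, which also held all the mature-gene cells.

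Summed over gene lists, MHC class II genes were higher and immunoglobulin and secretion genes lower in *Smo* cKO members. The 10 MHC class II genes were at 2533 CPM in control and 10158 CPM in *Smo* cKO members, a log2 ratio of 2.004 (interval 1.84 to 2.17). Of the 1907 *Smo* cKO UMIs of this list, 239 were in 1 cell in no group, which also had 92 *C1q* UMIs. The ratio was 1.26 (1.07 to 1.45) with at least 3 UMIs of *Cd79a* and *Cd79b*, 1.05 (0.88 to 1.23) among members with *Ighm* and *Igkc* or precursor UMIs, and 5.55 (4.19 to 7.43) without members that had 3 or more UMIs of other lineages. The 12 immunoglobulin constant genes were at 144567 and 17892 CPM, a log2 ratio of −3.01 (−3.07 to −2.96). In the control, 14521 of the *Igkc* and 4738 of the *Igha* UMIs were in the 6 secretory-gene cells, and outside the secretory-gene cells with *Jchain*, *Igkc* had 6 UMIs in control and 371 in *Smo* cKO members and *Ighm* 9 and 180. Without members that had 3 or more UMIs of 14 genes of other lineages, a choice that removes all secretory-gene cells, the constant gene ratio was 2.52 (1.80 to 3.34). The antibody secretion list was at −2.82 (−2.98 to −2.67) and its companion list at −1.22. The mature list had 0 against 62 UMIs, a log2 ratio of at least 3.92 against the limit of 3 UMIs. This limit was 3.08 with at least 3 UMIs of *Cd79a* and *Cd79b* and 3.27 with at most 2000 genes per cell. Without members that had 3 or more UMIs of other lineages it was 1.58. The other genes of mature B cells were at 1.41 (1.09 to 1.73). The precursor list was at 0.51 (−0.05 to 1.10), an interval that includes 0. Its sign turned with at most 2000 genes per cell (−0.11) and among members with *Ighm* and *Igkc* or precursor UMIs (−0.21). Leaving out members with 3 or more UMIs of other lineages removed all *Smo* cKO precursor-gene cells. The B lineage transcription factors were at 1.37 (1.10 to 1.65), but at −0.96 (−1.38 to −0.52) without members that had 3 or more UMIs of other lineages. The receptor complex was at 0.94 and its signaling genes at 0.44 (−0.01 to 0.91). The receptor complex list had 112 control and 294 *Smo* cKO UMIs. Among them were those of *Cd79a* (29 and 115) and *Cd79b* (26 and 81), by which the members were chosen, so its ratio only describes them. Trafficking receptors were at 0.34 (−0.10 to 0.80), survival receptors at 0.19 (−0.32 to 0.71) and germinal center genes at −0.04 (−1.07 to 1.03), all with intervals that include 0. Genes of B-1 and marginal zone cells were at 1.89, mostly *Plac8*, and cytokines at 2.44 (1.70 to 3.26). In *Smo* cKO members the cytokine genes *Il6*, *Ccl4* and *Ccl3* had 24, 17 and 11 UMIs. Of these the mature-gene cells held 1 each and the precursor-gene cells 0. *Ltb*, another gene of this list, had 15 of its 27 *Smo* cKO UMIs in the mature-gene cells. Ribosomal protein genes were at 0.14, *Myc* and growth genes at 0.85 and immediate early genes at 0.77, beside the median of 0.33 over all 649 genes.

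When only the precursor-gene cells of each library were set side by side, several of these log2 ratios had the opposite sign. Over 2 control and 4 *Smo* cKO cells, the MHC class II list was at −0.83 (interval −3.06 to 1.80), the immunoglobulin constant genes at 1.17 (−0.55 to 3.55) and the transcription factors at −0.32 (−0.84 to 0.23), all with intervals that include 0. The precursor list was at −0.87 (−1.43 to −0.28) and the proliferation list at −0.80 (−1.17 to −0.41). No such comparison could be made for mature-gene cells, since the control had 0.

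Genes of other lineages also differed between the libraries. The macrophage list was at 3247 CPM in control and 12352 CPM in *Smo* cKO members, with UMIs of 10 of 10 genes in both and *Apoe* as the most abundant, and it was at 1480 and 2684 CPM in the other kept cells. Of its 446 and 2319 UMIs, 2611 together were in the 13 cells in no group. The neutrophil list had 2 and 381 UMIs and the muscle list 608 and 16 UMIs, nearly all from the cells named above. The erythroid list had 39 and 377 UMIs, at 284 and 2008 CPM, with *Hbb-bs* the most abundant and *Alas2* at 0. In other kept cells it was at 1680 and 4820 CPM. Within the members, 236 of the erythroid UMIs were in the 15 mature-gene cells, of which *Hbb-bs* had 106 UMIs in 14 cells and up to 77 in 1 of them. The T and NK cell list had 6 and 2 UMIs, with *Cd3e* at 0 in both and *Cd3d* and *Cd3g* at 2 each in the control. Of the plasmacytoid list, *Ccr9*, *Klk1* and *Pacsin1* had 0 UMIs and *Cox6a2* had 6 and 1. The connective list was at 6923 and 7345 CPM, and platelet genes were at 451 and 559 CPM from *Pf4* alone. The part of any of these in the values above was not tested.

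The interferon-stimulated list was at a higher level in *Smo* cKO members and in the other cells of that library. Its 21 genes were at 1063 CPM in control and 2237 CPM in *Smo* cKO members, a log2 ratio of 1.07 (interval 0.80 to 1.36), against 392 and 1591 CPM in other kept cells. *Ly6e*, a surface protein of lymphocytes, was the most abundant gene in both, with 44 UMIs in 13 of 16 and 149 UMIs in 35 of 46 members. *Isg15*, which encodes a ubiquitin-like protein, had 1 UMI in 1 control member and 14 UMIs in 7 *Smo* cKO members. Alternatives moved the ratio of the list, to 0.38 (0.06 to 0.71) with at most 2000 genes per cell, to 0.13 (−0.68 to 1.05) without members that had 3 or more UMIs of other lineages, and to −0.70 (−1.79 to 0.47) in precursor-gene cells alone. *Irf7*, a regulator of interferon genes, had 9 UMIs in 3 and 6 UMIs in 4 members, so not every gene of the list followed the sum. The proliferation list was at 1776 and 2392 CPM (0.43, 0.20 to 0.66), and 95 and 90 of its 449 *Smo* cKO UMIs were in 2 single cells. The interval included 0 when scaled by the median gene (0.10, −0.13 to 0.33), with at most 2000 genes per cell (0.28, −0.03 to 0.59) and over the total without immunoglobulin and other abundant genes (0.19, −0.04 to 0.42). With at least 3 UMIs of *Cd79a* and *Cd79b* the ratio was 0.81 (0.53 to 1.11), and without members that had 3 or more UMIs of other lineages it was reversed, at −1.73 (−2.14 to −1.32).

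Neither the deleted gene nor the reporter was seen in B lineage cells. *Smo* had 0 UMIs in the 137376 UMIs of control members and in the 187739 UMIs of *Smo* cKO members, which allows up to 21.8 and 15.98 CPM. Other kept cells were at 17.3 and 10.7 CPM, below these limits. TdTomato also had 0 UMIs in both, beside 0.577 and 1.39 CPM in other kept cells. Of the 11 Hedgehog genes listed, only *Ptch1*, the receptor (2 UMIs in control and 1 in *Smo* cKO members), and *Gli3*, a transcription factor of the pathway (2 UMIs in the *Smo* cKO members), were found, and *Gli1*, a target gene, had 0. The pathway was therefore not measurable in these cells, and whether it differed between them was not tested.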

How the data were processed

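Callus cells were released with collagenase and dispase, depleted of dead cells and captured on the 10x Genomics platform, and cells of 3 animals went into 1 library per genotype. The authors deposited raw UMI counts per gene and cell from Cell Ranger 3.0.2 with reads aligned to mm10, over 31054 features including the TdTomato reporter. The deposited matrices held 10747 control and 10512 *Smo* cKO barcodes. The study left out cells with more than 2000 detected genes, a limit used here only as an alternative, since it would leave 4223 and 3859 cells. No doublet caller was run.

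Counts were summed over cells and given as CPM of those cells' UMIs. With 1 library per genotype no test was possible. Shares had exact Clopper-Pearson intervals at 95%, differences of shares Newcombe intervals, and ratios of summed UMIs exact conditional intervals for 2 Poisson counts, all of which cover counting error only. A count of 0 was taken to allow 3 UMIs. Called genes had at least 200 CPM and a ratio of at least 2-fold (between libraries) or 4-fold (members against other cells, and between groups of members). Classes of cells were compared after thinning to 1000 UMIs with a fixed seed. The members and the 32 gene lists were chosen with earlier results of these data known, and 1 listed gene, *Tent5c*, was not in the feature list. The genes named were those of the lists, the 20 with the highest lower ratio of members to other kept cells at 200 CPM in both libraries without the genes of the membership rule, and the 8 highest and 8 lowest ratios between libraries and between precursor-gene and mature-gene cells whose interval did not hold 0, without mitochondrial, ribosomal protein, hemoglobin and Y-linked genes, *Xist* and immunoglobulin variable segments. Genes named for single groups, as well as the splits by *Vpreb3* and *Jchain*, were chosen after their values were seen. Promoter windows came from RefSeq (GRCm38.p6). Python 3.11.15 with numpy 2.4.6, scipy 1.17.1, pandas 2.3.3, biopython 1.88 and matplotlib 3.10.9 was used, and the interval and thinning code was tested on simulated data. Other thresholds, scalings and choices of members were tried as alternatives.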

Additional observations from a re-analysis of the deposited data

How the results depend on the processing

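The larger share of B lineage cells in the *Smo* cKO library kept its direction under every alternative tried. The difference was 0.856 percentage points (12 of 4223 against 44 of 3859 cells) when cells with more than 2000 genes were left out. It was 0.237 points with at least 3 UMIs of *Cd79a* and *Cd79b*. Without members that had 3 or more UMIs of other lineages it was 0.171 points (0.0737 to 0.288). No paired analysis was possible because each genotype was 1 library. With a minimum of 3 UMIs of *Cd79a* and *Cd79b* (9 and 31 members), the log2 ratios were 3.08 for the mature list, −3.35 for the immunoglobulin constant genes and 1.26 for MHC class II. With at most 2000 genes per cell, 80 genes were lower, and the ratios were −0.11 for the precursor list, 3.27 for the mature list, −3.36 for the secretory list and −3.71 for the constant genes. Leaving out members with 3 or more UMIs of 14 genes of other lineages left 4 and 20 members and removed all secretory-gene cells and all 4 *Smo* cKO precursor-gene cells. The differences of shares, −100 points for the precursor class (over the 2 control cells deep enough to thin) and 0 points for the secretory class (0 cells in both), follow from these removals. Then 62 genes were higher and 515 lower, 39 genes stood 4-fold above other cells, and the ratios were −5.82 (precursor), 1.58 (mature), 2.52 (constant genes), 5.55 (MHC class II), −0.96 (transcription factors) and −1.73 (proliferation). The share of mature-gene cells differed by 32.6 points without thinning and 36.6 points with a class minimum of 1 UMI.

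Scaled by the median gene, 80 genes were higher, and the ratios were −3.15 (secretory), −3.34 (constant genes) and 1.68 (MHC class II). Without immunoglobulin, hemoglobin, *S100a8*, *S100a9*, ribosomal and mitochondrial genes in the total they were −3.06, −3.25 and 1.77. Among precursor-gene cells alone, 71 genes were higher and 308 lower, and the ratios were −0.87 (precursor), 1.17 (constant genes), −0.83 (MHC class II), −0.32 (transcription factors), −0.70 (interferon-stimulated) and −0.80 (proliferation). With a minimum of 50 CPM, 661 genes were higher and 319 lower, and 49 stood 4-fold above other cells; with none, 1578 and 1234 were higher and lower. Keeping only members with *Ighm* and *Igkc* or precursor UMIs, chosen after seeing the data, gave a difference in secretory share of −69.1 points, 207 higher genes, and ratios of −0.21 (precursor), 3.20 (mature), −3.54 (secretory), −3.73 (constant genes) and 1.05 (MHC class II). The signs of the precursor, MHC class II, constant gene, transcription factor, interferon-stimulated and proliferation ratios thus depended on which members were summed. The causes were not tested. Among mature-gene cells alone no value could be had, since the control had 0. The limits include 62 cells, pooled animals, 1 library per genotype and the dependence of several ratios on the members summed.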
